A study of Mus with 21 samples.

Results

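Wounds treated with aFGF were compared with wounds treated with bFGF in GelMA hydrogels of pH 8.4, the most alkaline of the 3 gels of the study. The comparison used the 6 libraries labelled with these groups out of 21, namely 8.4/aFGF replicates 1 to 3 and 8.4/bFGF replicates 1 to 3, and all 18806 genes of the count tables. The animals were female C57BL/6 mice of wild-type genotype, 8 weeks old, with full-thickness punch wounds of 8 mm on the back. The wounds compared were sampled on day 4. The paper assigned 3 mice to each of 7 groups and also killed mice on later days. How many mice of each group were sampled on day 4 is not given. Both groups received a wound and a gel of the same pH, and differed by the growth factor loaded. A control group, also of 3 libraries, was wounded and received no hydrogel, and no group received a gel without a growth factor, so the values below set 1 factor against the other and do not show what the alkaline gel does by itself. Each library is of wound tissue at a single time point, with all its cell types together.

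aFGF (FGF1) and bFGF (FGF2) are fibroblast growth factors that bind heparan sulfate and FGF receptor tyrosine kinases and signal through ERK. aFGF is the acidic member of the pair and bFGF the basic one, and aFGF can activate every FGF receptor isoform whereas bFGF prefers a smaller set. Both drive fibroblasts, endothelial cells and keratinocytes in healing skin. The question behind the comparison was whether 2 factors of different isoelectric point act differently at the pH of the wound bed.

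The 6 libraries had total counts of 34912711 to 37032127, and 18208 genes had a count in at least 1 of them. Skin markers were present in each library, and 28 of 28 basal keratinocyte genes and 44 of 44 fibroblast matrix genes passed the filter on low counts. Genes typical of other tissues stood out in 2 libraries. In 8.4/aFGF replicate 2, 28 genes were high in that library alone of all 21, led by the plasma protein genes Alb, at 138 CPM against 13.8 CPM in the next library, Ttr, Apoa2, Ahsg and Gc, which liver secretes. In 8.4/bFGF replicate 2, 95 genes were high alone, led by the steroid-making genes Hsd3b1, at 397.5 CPM against 0.237 CPM in the next library, and Akr1cl, by the hormone subunit gene Inha at 161 CPM, by Cyp11a1 at 144 CPM and by Ovgp1 of the oviduct at 80.2 CPM. CPM are counts scaled to a common library size, with TMM factors. Of these genes, 6 of 28 and 8 of 95 passed the filter on low counts. Other abundant genes of this kind were Bhmt, Serpina1b, Fga and Mat1a in the former library and Nr5a1, Serpina5, Gata4, Amh and Bpifb4 in the latter. What put these genes there was not tested, and counts that moved are also given without both libraries. In that fit of 4 libraries, 7.82% of genes had an unadjusted p under 0.05 and were higher with aFGF, and 5.48% were lower.

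Over all genes, 1 difference passed both thresholds, which were 0.05 for the adjusted p and 0.58 in either direction for the log2 fold change. Procr, the endothelial protein C receptor, which holds protein C on the cell surface for its activation by thrombin and thrombomodulin, was at 179, 162 and 135 CPM in 8.4/aFGF and 43.2, 40.8 and 42.6 CPM in 8.4/bFGF. The 3 libraries of each group lay close together, far from those of the other group. The means were 159 ± 22.3 against 42.2 ± 1.20 CPM (SD, n = 3 each), so Procr was 3.81-fold higher with aFGF (log2 fold change 1.93, SE 0.14, edgeR adjusted p = 0.0377). In DESeq2 its adjusted p was 1.54e-30, and over the alternatives run its adjusted p ranged from 1.54e-30 to 0.27. The controls were at 30.1, 183 and 32.5 CPM, where replicate 2 reached the aFGF level and the others lay under the bFGF level. Procr was thus the single call among 15041 genes tested with edgeR (0.00665%). With 1 library left out it stayed under an adjusted p of 0.05 only without 8.4/aFGF replicate 3 (edgeR adjusted p = 0.0182), and it also missed that threshold in a fit of all 21 libraries (edgeR adjusted p = 0.0934). As the libraries are bulk wound tissue, more cells of a type and more RNA per cell cannot be told apart for this gene or any below.

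Differences between the groups were not confined to Procr in number, though in the fit of the 6 libraries each of the remaining ones missed the adjusted threshold. An unadjusted edgeR p under 0.05 was found for 3180 genes (21.1%), with 1763 higher with aFGF (11.7%) and 1417 lower (9.42%). The groups did not overlap in 2063 genes that were higher with aFGF (13.7%) and 2071 that were lower (13.8%). At a looser adjusted p of 0.1, chosen after seeing the data, 152 genes passed (1.01%), 106 higher and 46 lower with aFGF, and DESeq2 called 150 of these 152 at its adjusted p of 0.05. DESeq2 called 949 genes in all (6.07% of 15635), 473 higher (3.03%) and 476 lower (3.04%) with aFGF. In the fit of all 21 libraries edgeR called 10 genes between the same groups, 7 higher and 3 lower with aFGF. Among the higher ones were Mmp19 and Lmna (edgeR adjusted p = 0.00341 for each), S100a10 (0.00493), Srxn1 (0.0337) and Hmox1 (0.0439), whose values follow. The lower ones were Prss46, Cacna1h and Lrch2, with log2 fold changes of -3.27, -3.07 and -1.33. Without 1 library, the share of all genes that were higher with aFGF at an unadjusted p under 0.05 was 6.81%, 8.64% and 12.7% with 8.4/aFGF replicates 1, 2 and 3 left out in turn and 9.7%, 9.2% and 7.34% with the 3 replicates of 8.4/bFGF left out. The shares that were lower were 6.46%, 6.81% and 10.4%, and 9.74%, 6.87% and 7.47%. Counts of list members over all 6 libraries are to be read against 11.7% and 9.42%. Those of members without overlap are to be read against 13.7% and 13.8%, and those without a library against the shares just given.

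**Figure D1:**
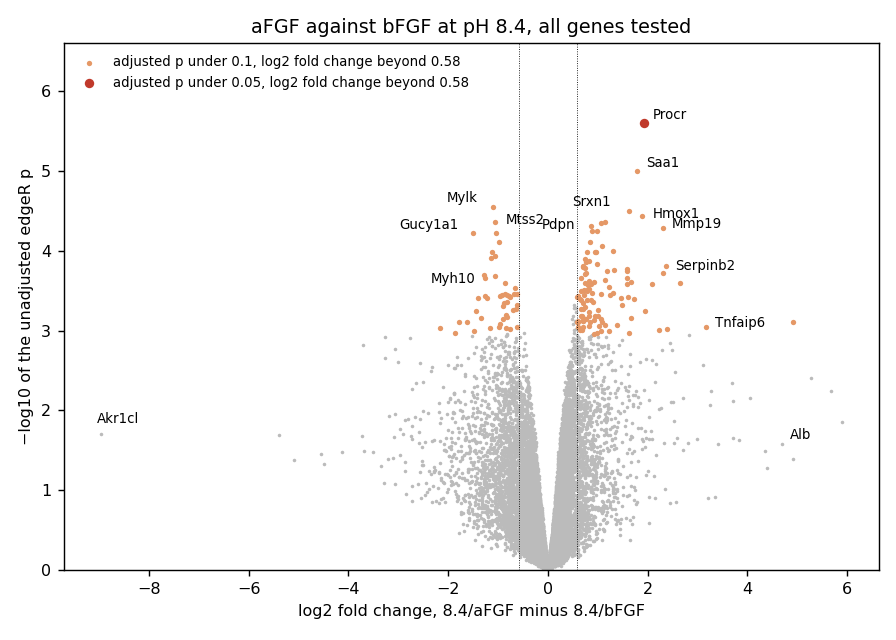
Each point is 1 of the 15041 genes tested, with the log2 fold change of 8.4/aFGF minus 8.4/bFGF on the x axis and the negative log10 of the unadjusted edgeR p on the y axis, and dotted lines at a log2 fold change of 0.58 in either direction. Procr stands alone past an adjusted p of 0.05, 152 genes pass 0.1 (orange, with Procr in red), and the farthest points, such as Akr1cl and Alb, are genes high in 1 library.

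Procr was also the first of the 12 genes with the smallest p that were higher with aFGF without overlap. The other 11 and the 12 lower ones chosen in the same way had edgeR adjusted p of 0.065 to 0.071 and so are given by their values. Among those higher with aFGF, Mmp19, a matrix metalloproteinase that cleaves basement membrane proteins, had the largest fold difference of the 12. It was at 963, 849 and 511 CPM in 8.4/aFGF and 146, 177 and 153 CPM in 8.4/bFGF. The lowest aFGF library lay well over the highest bFGF library (log2 fold change 2.31, SE 0.26). Saa1, an acute phase apolipoprotein, was at 46.02, 38.2 and 52.1 CPM in 8.4/aFGF and 12.7, 14.99 and 12.1 CPM in 8.4/bFGF (log2 fold change 1.79, SE 0.15). Lmna, which encodes lamins A and C of the nuclear envelope, was at 779, 854 and 721 CPM in 8.4/aFGF and 371, 375 and 395 CPM in 8.4/bFGF. Pdpn, the lymphatic and stromal glycoprotein podoplanin, was at 334, 324 and 323 CPM in 8.4/aFGF and 189, 182 and 168 CPM in 8.4/bFGF. Within each group these libraries differed little. The microtubule binding protein gene Tppp3 (125, 144 and 152 against 68.5, 55.5 and 68.6 CPM), the ectoenzyme gene Bst1 (185, 167 and 179 against 95.6, 101 and 100.1 CPM), the secreted factor gene Metrnl (164, 174 and 147 against 89.00, 78.98 and 81.2 CPM), the formin gene Fmnl2 (89.6, 82.7 and 94.4 against 54.5, 47.5 and 48.6 CPM) and the protease inhibitor gene Ctla2b (42.3, 45.5 and 55.8 against 24.6, 23.3 and 21.1 CPM) were separated in the same way, with log2 fold changes of 0.84 to 1.15. The remaining members of the 12 were Srxn1 and Hmox1, described with the oxidative stress genes.

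Of the 12 lower with aFGF, Gucy1a1, a subunit of the nitric oxide receptor guanylate cyclase found in vascular smooth muscle and pericytes, had the largest fold difference of the 12. It was at 4.50, 5.04 and 5.81 CPM in 8.4/aFGF and 13.2, 14.1 and 16.4 CPM in 8.4/bFGF (log2 fold change -1.49, SE 0.17). Mylk, the myosin light chain kinase that triggers smooth muscle contraction, was at 35.96, 42.4 and 35.5 CPM in 8.4/aFGF and 78.8, 87.7 and 80.1 CPM in 8.4/bFGF. Myh10, a non-muscle myosin heavy chain, was at 31.9, 25.2 and 34.3 CPM in 8.4/aFGF and 55.96, 67.1 and 70.9 CPM in 8.4/bFGF. The aFGF libraries lay under every bFGF library in each of these genes, which the choice of genes required. The protocadherin gene Pcdh18 was at 6.75, 5.79 and 6.97 against 14.4, 14.3 and 14.6 CPM in aFGF against bFGF, the Polycomb gene Cbx6 at 27.6, 28.5 and 37.2 against 62.3, 62.4 and 71.7 CPM and the transcription factor gene Nfia at 12.3, 12.2 and 13.6 against 23.9, 21.1 and 25.3 CPM. Tshz2 (22.6, 23.3 and 19.3 against 44.8, 47.9 and 43.1 CPM), Mtss2 (10.4, 10.7 and 11.6 against 22.2, 23.2 and 24.2 CPM), Etl4 (9.45, 9.53 and 9.81 against 19.04, 19.4 and 19.2 CPM), Cc2d2a (7.51, 6.29 and 8.70 against 18.4, 20.9 and 16.3 CPM), C130074G19Rik (29.7, 26.98 and 38.1 against 67.5, 74.9 and 67.2 CPM) and Serpina3g (29.1, 28.9 and 23.3 against 60.8, 55.1 and 81.2 CPM) completed the 12, with log2 fold changes between -1.29 and -0.98.

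**Figure D2:**
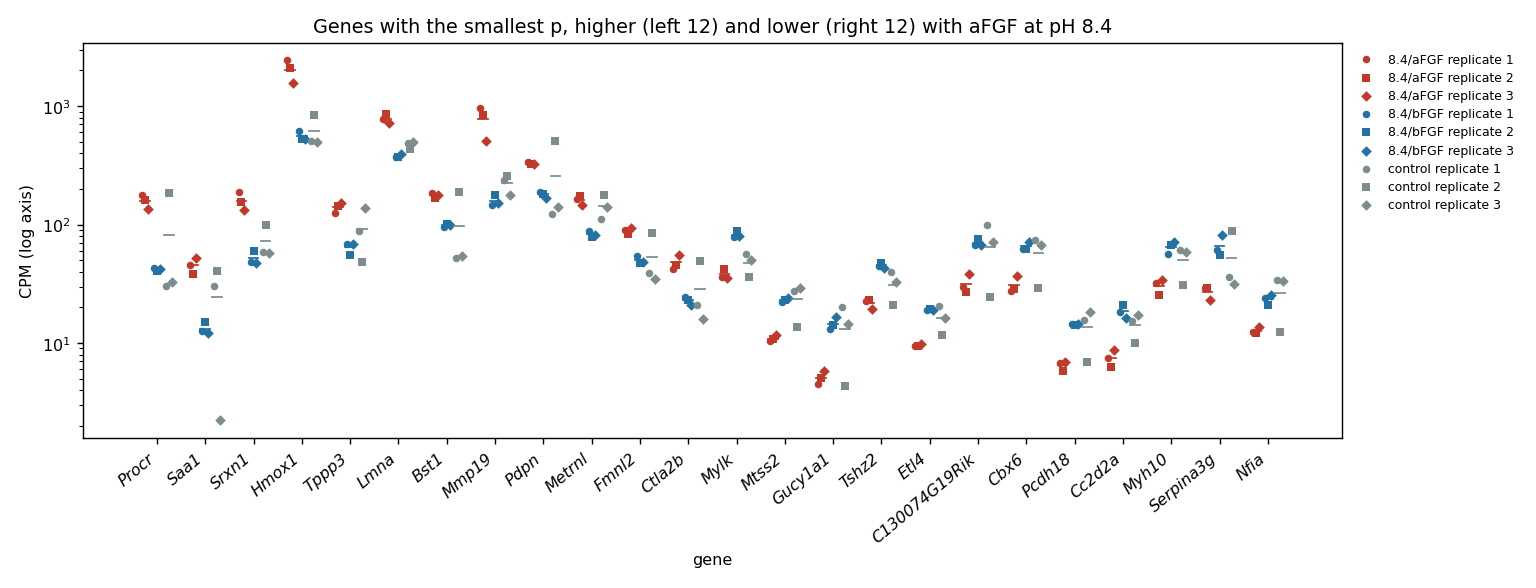
CPM on a log axis for the 24 genes with the smallest p in each direction, with 1 point per library of 8.4/aFGF (red), 8.4/bFGF (blue) and control (grey) and a bar at each group mean. The red and blue points do not overlap in any of the 24 genes, which the choice of genes required, and control replicate 2 (grey square) often lies nearer to the red points than the other controls do.

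In these 24 genes the 3 control libraries did not sit together. Control replicate 2 was nearer to the mean of 8.4/aFGF than to that of 8.4/bFGF in 19 of 24 genes, whereas control replicate 1 was nearer to it in 2 and control replicate 3 in 4. In Pdpn, at 122, 512 and 139.6 CPM in the controls, and in Gucy1a1, at 20.2, 4.37 and 14.5 CPM, the untreated wounds spanned the levels of both factors.

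Genes of coagulation and plasminogen activation, to which Procr belongs, set the balance between clotting and clot removal on cell surfaces. Of 22 such genes tested, from a list written after values had been seen, 9 were higher and 2 lower at an unadjusted p under 0.05, where 11.7% and 9.42% of all genes were, and their median log2 fold change was 0.33, where that of all genes tested was -0.012. The median was 0.21 without 8.4/aFGF replicate 1, with 7 higher and 0 lower. Thbd, thrombomodulin, the partner of Procr in protein C activation, was at 972, 510.1 and 292 CPM in 8.4/aFGF and 139, 117 and 73.7 CPM in 8.4/bFGF (log2 fold change 2.45, SE 0.48, edgeR adjusted p = 0.102). Every aFGF library lay over every bFGF library, though the aFGF libraries themselves spanned a wide range. Serpinb2, which encodes the plasminogen activator inhibitor PAI-2, was at 2045, 1682 and 1299.8 CPM in 8.4/aFGF and 416, 369.9 and 204 CPM in 8.4/bFGF (log2 fold change 2.36, SE 0.31, edgeR adjusted p = 0.0714). S100a10, which with annexin A2 docks plasminogen at the cell surface, was at 455, 469 and 413 CPM in 8.4/aFGF and 259, 204 and 218 CPM in 8.4/bFGF (log2 fold change 0.99, SE 0.13), and Anxa2 itself was at 1188, 1219 and 1483 against 896, 1054 and 844 CPM. Tnfrsf12a, the receptor for the cytokine TWEAK, was at 118, 93.3 and 79.2 CPM in 8.4/aFGF and 42.98, 42.9 and 43.3 CPM in 8.4/bFGF. The spread in the bFGF libraries was small for this gene, and all 3 lay under the aFGF libraries. F5, coagulation factor V, was at 39.9, 20.97 and 30.5 against 11.7, 19.9 and 16.1 CPM, without overlap. For Plaur, the urokinase receptor, the groups overlapped through replicate 2 of each, at 759.7, 207 and 265 against 63.97, 221 and 94.01 CPM. Tfpi, the inhibitor of tissue factor, and Serpine2, protease nexin 1, pointed the other way at 43.1, 47.3 and 51.3 against 61.8, 50.5 and 64.1 CPM and 52.7, 49.5 and 40.7 against 49.6, 106 and 74.04 CPM, with overlapping groups.

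Hmox1 is heme oxygenase 1, which breaks heme down to biliverdin, iron and carbon monoxide. It was at 2428, 2098 and 1557 CPM in 8.4/aFGF and 614, 526 and 529 CPM in 8.4/bFGF (means 2028 ± 439.7 against 556 ± 50.1 CPM (SD, n = 3 each)). The lowest aFGF library was over the highest bFGF library by a wide margin (log2 fold change 1.89, SE 0.20, edgeR adjusted p = 0.0645). Srxn1, sulfiredoxin, which repairs oxidised peroxiredoxins, was at 187, 156 and 134 CPM in 8.4/aFGF and 48.5, 59.6 and 47.9 CPM in 8.4/bFGF (log2 fold change 1.63, SE 0.17, edgeR adjusted p = 0.0645). Both are targets of NRF2, the transcription factor that answers oxidative stress. A list of 36 genes of NRF2 and heme handling was also written after values had been seen. Of these, 12 were higher and 1 lower at an unadjusted p under 0.05, where 11.7% and 9.42% of all genes were. The groups were apart in 12, each higher with aFGF, where 13.7% of all genes were apart in that direction. With both libraries of other tissues' genes left out, 15 were higher and 0 lower. With 1 library left out, 10 to 15 were higher and 0 to 3 lower, the 3 without 8.4/bFGF replicate 3. The metal binding metallothionein genes Mt1 and Mt2 were at 1536, 1488 and 1005 against 563, 343 and 433 CPM and 1854, 1809.7 and 1169 against 792, 444 and 508 CPM, and Txnrd1, thioredoxin reductase, was at 297, 266 and 244 against 125, 161 and 150.4 CPM. Gclc and Gclm, the subunits of the enzyme that starts glutathione synthesis, were at 51.5, 41.5 and 35.8 against 18.9, 29.5 and 21.6 CPM and 84.2, 53.97 and 102 against 40.7, 55.4 and 47.6 CPM, where the Gclm groups overlapped. Ftl1, the ferritin light chain, was at 4465, 3849 and 4299 against 2947, 2592 and 3322 CPM, and Nfe2l2, which encodes NRF2, at 323, 269.6 and 169 against 159.6, 132 and 158 CPM. Blvrb, biliverdin reductase B, which acts after Hmox1, was at 83.3, 82.5 and 87.7 against 74.2, 49.3 and 66.3 CPM. The member that was lower, Me1, malic enzyme of lipid synthesis, was at 77.4, 56.8 and 56.01 against 422, 129.9 and 63.2 CPM, with bFGF replicate 1 far over the others. The score of the adipocyte genes was also highest in this library, at 7.94 against 5.60 to 7.10 in the other 5, and its part in the Me1 value was not tested.

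Among the FGF ligand genes of the wound itself, as opposed to the proteins in the gel, 11 of 22 passed the filter and 4 of these were higher with aFGF at an unadjusted p under 0.05. Fgf2, which encodes bFGF, was at 5.44, 7.26 and 5.84 CPM in 8.4/aFGF and 4.72, 2.89 and 2.99 CPM in 8.4/bFGF (log2 fold change 0.82, SE 0.27, edgeR adjusted p = 0.17). The aFGF libraries lay over the bFGF libraries by a small margin. Fgf7, the keratinocyte growth factor made by wound fibroblasts, was at 74.6, 73.9 and 60.4 CPM in 8.4/aFGF and 39.7, 50.5 and 60.3 CPM in 8.4/bFGF (log2 fold change 0.49, SE 0.18). Its lowest aFGF library and highest bFGF library were nearly equal. Fgf23 was at 21.8, 10.3 and 6.16 against 3.27, 4.42 and 5.68 CPM and Fgf18 at 6.02, 4.43 and 5.03 against 2.16, 2.76 and 3.88 CPM, both low genes. Fgf1, which encodes aFGF, was at 7.93, 11.9 and 6.54 against 11.3, 19.7 and 6.09 CPM with overlapping groups (edgeR adjusted p = 0.558). In the fit of 4 libraries, 0 of 12 ligands tested passed an unadjusted edgeR p of 0.05, and DESeq2 over all 6 libraries called 1. With 1 library left out, 1 to 4 ligands were higher, with 2 without 8.4/aFGF replicate 1 or 2 and 1 without 8.4/bFGF replicate 1 or 2.

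The receptor and co-receptor genes had a median log2 fold change of -0.30, with 11 of 16 tested negative and 5 positive. The median was -0.33 to -0.22 with 1 library left out, and -0.29 without both libraries with genes of other tissues. Fgfr1, the main receptor of the wound stroma, was at 258, 239.9 and 265 CPM in 8.4/aFGF and 251, 206 and 288 CPM in 8.4/bFGF, a log2 fold change of 0.056. Fgfr2, whose epithelial form answers Fgf7, was at 14.3, 10.8 and 13.8 against 13.1, 21.1 and 14.5 CPM and Fgfr3 at 12.04, 18.5 and 16.6 against 17.9, 18.8 and 16.1 CPM, with log2 fold changes of -0.30 and -0.15. Among 16 receptors and co-receptors tested, 1 was higher and 2 were lower at an unadjusted p under 0.05, where 11.7% and 9.42% of all genes were. In the same list, 2 were higher without 8.4/bFGF replicate 1 or 2, while 1 was lower without 8.4/aFGF replicate 1 or 8.4/bFGF replicate 1, and 0 without 8.4/bFGF replicate 2. The higher one was Sdc4, the heparan sulfate proteoglycan syndecan 4, at 513, 488 and 259 CPM in 8.4/aFGF and 173, 115 and 129.97 CPM in 8.4/bFGF (log2 fold change 1.62, SE 0.30, edgeR adjusted p = 0.0988). Its aFGF libraries stood over all bFGF libraries, with replicate 3 the lowest of the aFGF group. The decoy receptor gene Fgfrl1 was at 18.6, 15.1 and 15.4 against 34.4, 28.2 and 18.9 CPM and the glypican gene Gpc4 at 21.4, 31.9 and 19.05 against 32.5, 34.3 and 37.99 CPM, lower with aFGF in each library.

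Genes that FGF and ERK signaling switch on in many cells were read as a transcript-level record of both factors. Of 22 tested, 4 were higher and 2 lower with aFGF at an unadjusted p under 0.05, and their median log2 fold change was 0.084. These values moved with single libraries. Without 8.4/aFGF replicate 3, 9 were higher and 2 lower with a median of 0.25, and without 8.4/aFGF replicate 1, 2 were higher and 2 lower with a median of -0.022. The number higher and the median were 6 and 0.14 without 8.4/bFGF replicate 2, 2 and 0.013 without 8.4/bFGF replicate 3, 4 and 0.20 without 8.4/aFGF replicate 2 and 4 and 0.31 without 8.4/bFGF replicate 1. The Sprouty genes, feedback inhibitors of receptor tyrosine kinases, overlapped between the groups, with Spry1 at 32.6, 20.8 and 19.9 against 29.2, 20.8 and 17.9 CPM, Spry2 at 37.5, 29.4 and 17.9 against 27.8, 15.6 and 13.8 CPM and Spry4 at 15.2, 9.17 and 9.78 against 15.6, 11.8 and 9.36 CPM. Dusp6, the phosphatase that switches ERK off, was at 124, 91.1 and 88.4 against 71.4, 91.3 and 71.5 CPM, a log2 fold change of 0.40 (SE 0.18). The ETS factor genes Etv4 and Etv5 were at 7.63, 6.76 and 11.1 against 12.2, 9.84 and 8.42 CPM and 22.6, 26.9 and 21.9 against 31.1, 25.7 and 26.2 CPM. These 6 common FGF targets had edgeR adjusted p between 0.264 and 0.88. Members that were separated included Ier3, an early response gene, at 516, 201 and 286 CPM in 8.4/aFGF and 110.1, 149.8 and 127 CPM in 8.4/bFGF (log2 fold change 1.40, SE 0.35) and Phlda1 at 206, 71.4 and 55.7 against 30.2, 45.9 and 29.02 CPM, both higher with aFGF. Il17rd, the FGF antagonist Sef, was at 7.02, 8.09 and 11.4 against 14.4, 15.01 and 19.1 CPM and Hmga2, a chromatin gene of growing mesenchyme, at 6.17, 5.79 and 5.16 against 15.95, 9.28 and 8.97 CPM, both lower with aFGF.

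Immediate early genes are transcribed within minutes of a stimulus and need no new protein. All 24 tested had a positive log2 fold change, 11 of them at an unadjusted p under 0.05, with a median of 0.83. Without both libraries with genes of other tissues, 5 of 24 passed the same unadjusted threshold, with a median of 0.88. The score of these genes, their mean log2 CPM, was 7.65, 6.68 and 6.31 with aFGF and 6.33, 5.76 and 6.24 with bFGF, so aFGF replicate 1 stood over the rest and the groups overlapped. Without that library the median was 0.36, with 9 of 24 past the threshold. The number was 7 without 8.4/bFGF replicate 2, 6 without 8.4/bFGF replicate 3 and 15 without 8.4/aFGF replicate 3, and 0 were lower in any of these fits. Jund, an AP-1 subunit, was at 325, 281 and 294 CPM in 8.4/aFGF and 211, 189 and 239 CPM in 8.4/bFGF (log2 fold change 0.51, SE 0.13). Its groups did not overlap. Nr4a3, an orphan nuclear receptor, was at 85.7, 44.6 and 12.9 CPM in 8.4/aFGF and 6.51, 6.23 and 12.8 CPM in 8.4/bFGF, where replicate 3 of aFGF nearly equalled the highest bFGF library. Junb was at 1307, 654 and 628 against 448, 509.7 and 471 CPM, Klf6 at 499, 293 and 261 against 206, 164 and 201 CPM and Egr2 at 44.3, 25.1 and 18.02 against 16.5, 13.6 and 14.7 CPM. In each of these 3 genes 8.4/aFGF replicate 1 was far over the other 2 aFGF libraries.

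Inflammatory cytokines and chemokines had a median log2 fold change of 1.05 over 40 genes tested. With aFGF, 16 were higher and 3 lower at an unadjusted p under 0.05, where 11.7% and 9.42% of all genes were. The groups did not overlap in 12 higher and 2 lower genes, where 13.7% and 13.8% of all genes were apart. Without 8.4/aFGF replicate 1 the median was 0.58, with 10 higher and 3 lower, and without 8.4/aFGF replicate 3 it was 1.27, with 20 and 2. Il33, an alarmin of stroma and epidermis, was at 1063, 1169.6 and 713 CPM in 8.4/aFGF and 369.7, 227 and 179 CPM in 8.4/bFGF (log2 fold change 1.95, SE 0.32, edgeR adjusted p = 0.0804). The lowest aFGF library was nearly 2 times the highest bFGF library. Cxcl5, a neutrophil attractant, was at 892, 564 and 598 CPM in 8.4/aFGF and 357, 332 and 218 CPM in 8.4/bFGF (log2 fold change 1.20, SE 0.26), again without overlap. The eosinophil attractant gene Ccl11 was at 111, 125 and 52.2 against 44.5, 22.6 and 33.9 CPM, and the myeloid chemokine genes Ccl6 and Ccl9 at 2652, 2576 and 2340.2 against 1704, 859 and 736 CPM and 1384, 1489 and 975 against 789, 359.6 and 383 CPM. Il11, a cytokine of stromal cells, was at 77.7, 22.5 and 22.5 CPM in 8.4/aFGF and 2.58, 8.22 and 3.60 CPM in 8.4/bFGF and Il6 at 437, 81.5 and 43.7 CPM in 8.4/aFGF and 20.4, 27.3 and 12.9 CPM in 8.4/bFGF. For both, replicate 1 of aFGF was several times higher than the rest of its group, and each aFGF library still lay over each bFGF library. The monocyte attractant genes Ccl2 and Ccl7 were at 409.6, 193 and 56.8 against 73.1, 48.7 and 39.7 CPM and 336, 237 and 58.4 against 68.4, 62.9 and 52.9 CPM, where replicate 3 of aFGF fell among the bFGF libraries. Csf2, which encodes GM-CSF, was at 10.8, 0.693 and 2.30 against 0, 0.233 and 0.0277 CPM. The members that were lower included Il1a, at 19.2, 7.31 and 16.3 CPM in 8.4/aFGF and 25.97, 54.6 and 88.2 CPM in 8.4/bFGF (log2 fold change -1.96, SE 0.51), and Il23a, at 0.486, 0.499 and 0.324 against 1.21, 1.09 and 2.35 CPM, both without overlap. Il1a signals through the same receptor as Il1b and is released by damaged keratinocytes.

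Neutrophil genes were higher with aFGF in 8 of 29 tested at an unadjusted p under 0.05 and lower in 0, with a median log2 fold change of 0.57. The number higher was 14 without 8.4/aFGF replicate 2 and 16 without 8.4/bFGF replicate 2 (medians 0.76 and 1.11), but 4, 5, 5 and 4 without 8.4/aFGF replicates 1 and 3 and 8.4/bFGF replicates 1 and 3, with medians of 0.38 to 0.53. Il1r2, the decoy receptor of interleukin 1 on neutrophils, was at 446, 249.6 and 372 CPM in 8.4/aFGF and 141, 137 and 113 CPM in 8.4/bFGF (log2 fold change 1.47, SE 0.23, edgeR adjusted p = 0.0714). Clec4d, a myeloid C-type lectin, was at 631, 382 and 444 CPM in 8.4/aFGF and 172, 263 and 221 CPM in 8.4/bFGF, and Trem1, which amplifies neutrophil and monocyte activation, at 505, 162 and 211 against 44.7, 116 and 59.9 CPM. These genes did not overlap between the groups. The chemokine receptor gene Cxcr2 was at 414, 195 and 418 against 126, 200.4 and 125 CPM, where replicate 2 of aFGF and replicate 2 of bFGF were nearly equal. Without these 2 libraries, 21 of 29 neutrophil genes were higher at an unadjusted p under 0.05 and 0 lower, with a median of 1.32. Over all 6 libraries the list scores, the mean log2 CPM of the genes tested, were 7.54, 6.43 and 7.35 with aFGF and 5.81, 7.22 and 6.24 with bFGF. Replicate 2 was thus the lowest of one group and the highest of the other.

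Macrophage genes gave 8 higher and 1 lower of 30 tested, where 11.7% and 9.42% of all genes were. Their median log2 fold change was 0.33. Without 8.4/bFGF replicate 1, 16 were higher with a median of 0.58, and without 8.4/bFGF replicate 3, 5 were higher with a median of 0.39. Fcgr3, an activating Fc receptor, was at 590.5, 527 and 479 CPM in 8.4/aFGF and 351, 311 and 329 CPM in 8.4/bFGF (log2 fold change 0.71, SE 0.13, edgeR adjusted p = 0.0941), and Fcgr4 at 101, 123 and 73.8 against 50.4, 49.3 and 50.9 CPM. Cd14, the lipopolysaccharide co-receptor, was at 2320.4, 1099 and 929 CPM in 8.4/aFGF and 257, 481 and 395 CPM in 8.4/bFGF, where the lowest aFGF library was nearly 2 times the highest bFGF library. The complement gene C1qb was at 1208, 1268 and 807 against 928, 471 and 660.2 CPM with overlapping groups. Gpnmb, a gene of lysosome-rich macrophages, pointed the other way at 53.7, 73.2 and 51.6 against 97.3, 72.03 and 101 CPM. Mrc1, the mannose receptor used by the study as a stain for alternatively activated macrophages, was at 1247, 1262 and 736 CPM in 8.4/aFGF and 1034, 396 and 537 CPM in 8.4/bFGF (log2 fold change 0.75, SE 0.39, edgeR adjusted p = 0.315). Ccr7, its stain for classically activated macrophages, was at 16.4, 16.6 and 14.6 CPM in 8.4/aFGF and 6.28, 5.89 and 11.6 CPM in 8.4/bFGF (log2 fold change 1.02, SE 0.28, edgeR adjusted p = 0.137). The Ccr7 groups did not overlap and the Mrc1 groups overlapped.

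Interferon response genes depended on which libraries were used. Over all 6 libraries, 11 of 56 tested were higher and 0 lower at an unadjusted p under 0.05, with a median log2 fold change of 0.31. Without both libraries with genes of other tissues, 1 was higher and 8 were lower, and the median was -0.18. Leaving out 8.4/aFGF replicate 2 alone gave 5 higher, 4 lower and a median of -0.081, and 8.4/bFGF replicate 2 alone 5, 1 and 0.16. Without 8.4/bFGF replicate 3, 5 were higher and 0 lower with a median of 0.39, and without 8.4/aFGF replicate 3 the median was 0.52. Rsad2, the antiviral enzyme viperin, shows the pattern, at 32.01, 81.7 and 29.6 CPM in 8.4/aFGF and 26.7, 18.8 and 22.5 CPM in 8.4/bFGF. Replicate 2 was the highest aFGF library and the lowest bFGF library. Oas3, an RNA sensor that makes 2-5A, stood apart from this, at 63.6, 77.8 and 62.2 CPM in 8.4/aFGF and 36.6, 27.5 and 23.1 CPM in 8.4/bFGF (log2 fold change 1.24, SE 0.19, edgeR adjusted p = 0.0714), and its log2 fold change was 1.09 without both libraries. Trim30a was at 121, 161 and 111 against 95.8, 64.1 and 70.5 CPM and Il15, a cytokine for T and NK cells, at 11.2, 13.3 and 17.6 against 7.09, 8.78 and 9.80 CPM, both without overlap. Rnf213, a large ubiquitin ligase of the interferon response, was at 193, 359 and 172 against 239, 191 and 198 CPM, and the interferon-inducible GTPase genes F830016B08Rik and Gm12185, which belong to families of near-identical copies, at 4.26, 6.26 and 2.46 against 6.99, 4.06 and 6.01 CPM and 0.851, 0.803 and 1.03 against 0.738, 0.310 and 0.692 CPM. Their edgeR adjusted p were 0.67, 0.601 and 0.451.

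The epidermis showed single genes rather than a shift of its markers. Of 28 basal and wound-edge keratinocyte genes tested, 6 were higher and 1 lower at an unadjusted p under 0.05. The shares of all genes were 11.7% and 9.42%, and the median log2 fold change of the 28 was -0.036. Without 8.4/bFGF replicate 3, 3 were higher, and without 8.4/bFGF replicate 2, 4 were lower, and the median stayed between -0.10 and 0.069 with any 1 library left out. Itga5, the fibronectin receptor subunit that migrating keratinocytes and stroma use, was at 671, 476 and 441 CPM in 8.4/aFGF and 207, 251 and 271 CPM in 8.4/bFGF (log2 fold change 1.14, SE 0.20, edgeR adjusted p = 0.0932). The EGF receptor ligand genes Ereg, Areg and Hbegf were at 251, 42.2 and 25.6 against 8.46, 8.99 and 7.81 CPM, 38.4, 12.3 and 12.02 against 7.67, 5.12 and 5.51 CPM and 75.2, 37.98 and 30.4 against 25.6, 23.7 and 20.05 CPM. In each ligand gene aFGF replicate 1 was the highest library and the groups did not overlap. Lama3, a chain of laminin 332 in the epidermal basement membrane, was lower with aFGF in each library, at 30.00, 32.2 and 41.1 against 85.7, 46.9 and 64.7 CPM. Of 44 genes of differentiated and cornified epidermis, 4 were higher and 2 lower. With 1 library left out these numbers were 1 to 4 and 1 to 5, and the median ran from -0.23 without 8.4/bFGF replicate 2 to 0.20 without 8.4/bFGF replicate 3. Tgm1, the transglutaminase that crosslinks the cornified envelope, was at 180.03, 96.96 and 148 against 55.3, 72.9 and 58.6 CPM, and the desmosomal cadherin gene Dsc1 at 47.5, 51.6 and 59.6 against 75.8, 81.05 and 91.96 CPM, in opposite directions and without overlap. Among 25 sebocyte and skin lipid genes 0 were higher and 3 lower, namely the desaturase gene Fads2 (13.3, 16.1 and 21.6 against 29.2, 45.5 and 31.1 CPM), Insig1 (51.7, 49.4 and 46.4 against 72.5, 69.3 and 54.6 CPM) and Hmgcs1 (76.8, 91.5 and 97.5 against 101, 128 and 114 CPM). Without 8.4/bFGF replicate 3, 8 of the 25 were lower, and without 8.4/bFGF replicate 2, 1 was. Hair follicle genes were mostly under the filter, with 9 of 33 tested and 0 at an unadjusted edgeR p under 0.05 or called by DESeq2, Krt75 (3.53, 2.77 and 2.86 against 2.72, 6.38 and 4.68 CPM) and Padi3 (0.486, 0.194 and 1.000 against 0.844, 0.620 and 0.665 CPM) having the smallest p. At most 2 passed with 1 library left out, both higher, without 8.4/bFGF replicate 2.

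Hyaluronan is the large glycosaminoglycan of early granulation tissue, made by Has enzymes from sugar nucleotides and bound by proteins such as TSG-6. From a list of 24 such genes written after values had been seen, 23 were tested, with a median log2 fold change of 0.69. At an unadjusted p under 0.05, 11 were higher and 1 lower with aFGF, where 11.7% and 9.42% of all genes were. The median was 0.38 without 8.4/aFGF replicate 2, 0.39 without 8.4/bFGF replicate 3, 1.04 without 8.4/aFGF replicate 3 and 0.47 without both libraries with genes of other tissues, and 9 to 13 were higher in these fits and those without another library. Ugdh, which makes UDP-glucuronic acid, was at 703, 614 and 351 CPM in 8.4/aFGF and 162, 133 and 105 CPM in 8.4/bFGF (log2 fold change 2.08, SE 0.30, edgeR adjusted p = 0.0714). Tnfaip6, which encodes TSG-6, was at 685, 383 and 139 CPM in 8.4/aFGF and 40.4, 56.8 and 39.7 CPM in 8.4/bFGF (log2 fold change 3.17, SE 0.57, edgeR adjusted p = 0.0942). The synthase gene Has1 was at 371, 111 and 24.9 CPM in 8.4/aFGF and 22.2, 7.03 and 10.5 CPM in 8.4/bFGF, and Has3 at 24.1, 21.00 and 13.00 against 10.1, 11.4 and 4.96 CPM. All 4 genes were apart between the groups, with aFGF replicate 3 the lowest of its group in each. Gfpt2 and Uap1, which make the precursor of the other sugar nucleotide, were at 497, 437 and 143 against 123, 63.2 and 60.9 CPM and 466, 426 and 182 against 137, 85.5 and 81.8 CPM in the same order of libraries. Ptx3, the pentraxin that crosslinks hyaluronan, was at 1567, 1195 and 213 against 290.1, 144 and 90.4 CPM, and here aFGF replicate 3 fell under the highest bFGF library. Cd44, the hyaluronan receptor, was at 856, 627 and 524 against 240.2, 399.8 and 339 CPM. Cemip, which starts hyaluronan breakdown, was lower with aFGF at 12.5, 6.81 and 16.4 against 15.7, 38.5 and 39.2 CPM, with overlapping groups.

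**Figure D3:**
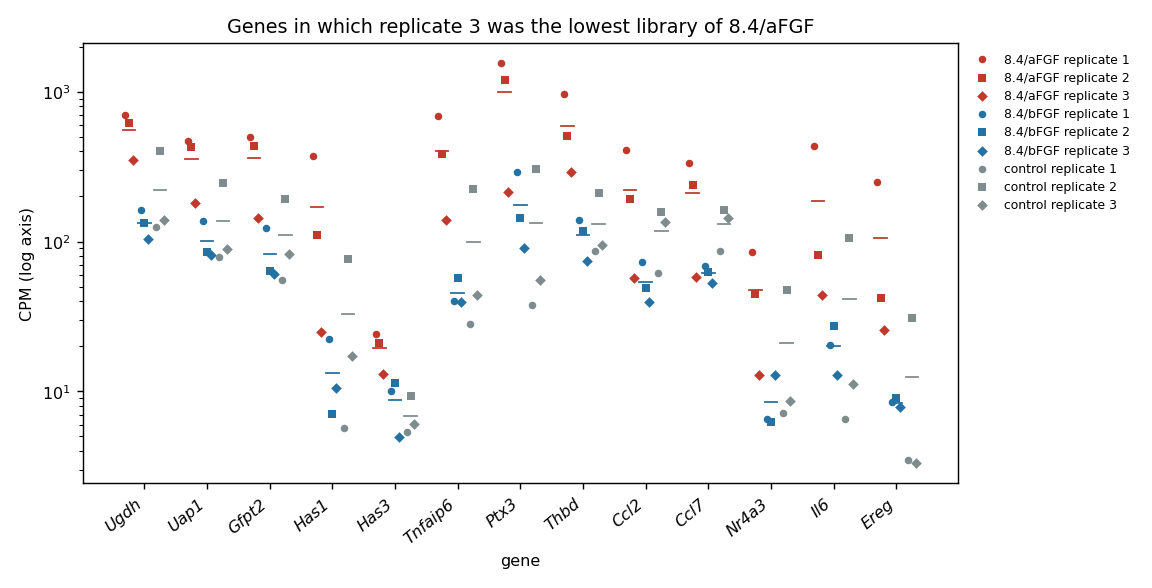
CPM on a log axis for 13 genes, chosen after their values were seen, with 1 point per library of 8.4/aFGF (red), 8.4/bFGF (blue) and control (grey) and a bar at each group mean. Replicate 3 (diamond) is the lowest red point in each gene and in Ccl2, Ccl7 and Ptx3 it falls among the blue points, while in Ugdh, Tnfaip6 and Thbd it stays over all of them.

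The number of calls depended on 8.4/aFGF replicate 3. Without it, edgeR called 172 genes (1.12% of 15321), 130 higher (0.849%) and 42 lower (0.274%) with aFGF, while leaving out any one of the other 5 libraries gave 0 calls and no library left out gave 1. In 145 of the 172 genes replicate 3 still lay on the aFGF side of all 3 bFGF libraries, in 134 of them between the other aFGF libraries and the bFGF libraries, and in 27 it overlapped the bFGF libraries. DESeq2 over all 6 libraries called 139 of these 172. The smallest p without replicate 3 belonged to Procr, Rdh10, Mmp19, Isy1, Ramp3 and Hmox1 among higher genes and to Cck, C130074G19Rik, Cbx6, Bcl9l, Palm and Tshz2 among lower ones. Rdh10, an enzyme of retinoic acid synthesis, was at 158, 140.3 and 42.4 CPM in 8.4/aFGF and 28.5, 26.6 and 22.2 CPM in 8.4/bFGF (log2 fold change 2.16 with and 2.56 without replicate 3, edgeR adjusted p = 0.113 and 0.0182). Its adjusted p ranged from 7.01e-05 to 0.329 over all alternatives. Ramp3, which pairs with the adrenomedullin receptor, was at 25.3, 20.3 and 9.54 against 2.90, 2.64 and 3.46 CPM, the splicing factor gene Isy1 at 88.2, 90.3 and 59.7 against 32.7, 33.6 and 29.7 CPM, the hormone gene Cck at 0.182, 0.139 and 1.51 against 4.88, 4.93 and 3.74 CPM, the Wnt coactivator gene Bcl9l at 41.8, 43.1 and 99.3 against 85.2, 90.7 and 82.4 CPM and Palm at 29.8, 29.3 and 43.6 against 53.8, 53.7 and 54.05 CPM. Replicate 3 lay between the rest of its group and bFGF in Rdh10, Ramp3, Isy1, Cck and Palm, and in Bcl9l it was higher than every bFGF library.

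Lower with aFGF were genes of smooth muscle, pericytes and myofibroblasts, the cells that contract vessels and the wound. Of 20 tested, 10 were lower and 0 higher at an unadjusted p under 0.05, each of the 10 without overlap, with a median log2 fold change of -0.58. With the 2 doubtful libraries left out, 9 were lower and 0 higher, with a median of -0.88. With 1 library left out, 8 to 11 were lower and 0 higher, with medians of -0.74 to -0.47. Cspg4, the pericyte proteoglycan NG2, was at 16.8, 14.7 and 19.7 CPM in 8.4/aFGF and 30.1, 35.03 and 32.7 CPM in 8.4/bFGF (log2 fold change -0.92, SE 0.14, edgeR adjusted p = 0.0714). Myh11, smooth muscle myosin heavy chain, was at 34.3, 36.3 and 28.1 CPM in 8.4/aFGF and 88.3, 82.3 and 53.9 CPM in 8.4/bFGF (log2 fold change -1.17, SE 0.21, edgeR adjusted p = 0.0945). Notch3, the receptor that keeps mural cells mature, was at 45.05, 46.8 and 46.7 against 71.1, 68.6 and 102 CPM. In these genes and in Mylk the highest aFGF library stayed under the lowest bFGF library. Cnn1, calponin, was at 5.62, 3.96 and 5.48 against 35.2, 15.97 and 8.09 CPM and Actg2, smooth muscle gamma actin, at 6.69, 9.39 and 6.51 against 30.7, 14.1 and 13.1 CPM, where bFGF replicate 1 was far over the other libraries. Acta2, smooth muscle alpha actin, which the study stained as a marker of myofibroblasts, was at 231, 214 and 182 CPM in 8.4/aFGF and 261, 256 and 318 CPM in 8.4/bFGF, with means of 209 ± 25.1 against 278 ± 34.1 CPM (SD, n = 3 each) (log2 fold change -0.39, SE 0.14, edgeR adjusted p = 0.195).

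Fibroblast matrix genes leaned the same way, with a median log2 fold change of -0.24. At an unadjusted p under 0.05, 9 were lower and 2 higher of 44 tested, where 9.42% and 11.7% of all genes were. Without 8.4/bFGF replicate 1, 15 were lower with a median of -0.40, without 8.4/bFGF replicate 2, 12 with -0.43, and without 8.4/bFGF replicate 3, 6 with -0.064. The number lower was 5, 5 and 6 without 8.4/aFGF replicates 1, 2 and 3, and 7 without both libraries with genes of other tissues, where the median was -0.45. Loxl3, a collagen crosslinking oxidase, was at 70.97, 72.5 and 78.6 CPM in 8.4/aFGF and 98.6, 113 and 103 CPM in 8.4/bFGF (log2 fold change -0.48, SE 0.10). Col12a1 and Col6a3, chains of fibril-associated and beaded-filament collagens, were at 503, 355 and 596 against 730.01, 779 and 1056 CPM and 809, 813 and 829 against 954, 1136 and 1469 CPM, and the growth factor receptor genes Pdgfra and Pdgfrb at 232, 269.7 and 299 against 399, 346 and 355 CPM and 78.8, 85.8 and 166 against 173, 196 and 218 CPM. All 5 were lower with aFGF without overlap. The members that were higher were Vcan, the hyaluronan-binding proteoglycan versican, at 413, 417 and 393 against 289, 343 and 302 CPM, and Thbs1, thrombospondin 1, at 7017, 2504 and 2951 against 587, 1859 and 662 CPM. Among 23 matrix metalloproteinases, related proteases and inhibitors, 4 were higher and 6 lower, where 11.7% and 9.42% of all genes were. These numbers were 2 and 6 or 7 without 8.4/aFGF replicate 1, 8.4/bFGF replicate 1 or 8.4/bFGF replicate 3. Against the higher Mmp19, the macrophage elastase gene Mmp12 was at 16.7, 31.1 and 26.3 CPM in 8.4/aFGF and 111, 55.5 and 91.9 CPM in 8.4/bFGF (log2 fold change -1.78, SE 0.31, edgeR adjusted p = 0.0883). The stromelysin and collagenase genes Mmp10 and Mmp13 were at 6.17, 5.57 and 10.5 against 14.2, 17.3 and 32.95 CPM and 28.4, 24.05 and 44.8 against 69.9, 62.9 and 229 CPM and Mmp11 at 6.08, 8.56 and 17.1 against 18.7, 29.5 and 44.4 CPM, each lower with aFGF without overlap. In cartilage and bone genes, 1 of 13 tested was higher and 3 lower, and 2 and 4 without 8.4/bFGF replicate 3. Alpl, alkaline phosphatase, which neutrophils express too, was at 9.64, 17.95 and 23.1 against 3.53, 5.04 and 2.33 CPM, and Col11a1 at 4.41, 4.10 and 3.03 against 7.49, 9.15 and 9.75 CPM.

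Proliferation genes were lower in 10 of 38 tested and higher in 1 at an unadjusted p under 0.05, with a median log2 fold change of -0.43. These counts moved most with single libraries. Without 8.4/aFGF replicate 3, 23 of 38 were lower with a median of -0.63, and without 8.4/bFGF replicate 1, 16 with -0.53. The number lower was 3 without 8.4/aFGF replicate 1, 3 without 8.4/aFGF replicate 2 and 3 without 8.4/bFGF replicate 2, with medians of -0.32, -0.36 and -0.21. The mitosis genes Cenpf and Tpx2 were at 9.85, 10.3 and 11.9 against 14.2, 21.9 and 18.5 CPM and 20.8, 21.4 and 30.5 against 34.9, 55.9 and 41.4 CPM, and Top2a at 52.8, 57.3 and 80.4 against 85.7, 129 and 113 CPM. In Tpx2 and Top2a, bFGF replicate 2, the library with ovary genes, was the highest and aFGF replicate 3 the nearest to bFGF. Without both libraries with genes of other tissues, 0 of 38 passed an unadjusted edgeR p of 0.05, DESeq2 over all 6 called 3, and the median was -0.20. Pcna, the member that was higher, was at 123, 113 and 123 against 99.7, 102 and 107 CPM.

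Endothelial genes, Procr and Pdpn among them, had a median log2 fold change of -0.10. At an unadjusted p under 0.05, 5 were higher and 3 lower of 31 tested, where 11.7% and 9.42% of all genes were. Without 8.4/bFGF replicate 1, 9 were lower with a median of -0.24, without 8.4/aFGF replicate 3, 6 with -0.15, and without 8.4/bFGF replicate 3 the median was 0.11. The leukocyte adhesion genes of activated endothelium, Selp and Sele, were at 248, 188 and 113 CPM in 8.4/aFGF and 54.3, 76.4 and 89.99 CPM in 8.4/bFGF and 46.2, 24.02 and 11.7 CPM in 8.4/aFGF and 7.75, 10.4 and 9.91 CPM in 8.4/bFGF, without overlap. Angpt2, the Tie2 antagonist of vessels that remodel, was at 68.7, 58.4 and 83.5 against 31.4, 47.3 and 52.4 CPM. Tek, which encodes Tie2 itself, was at 24.2, 31.4 and 29.7 CPM in 8.4/aFGF and 44.5, 42.4 and 50.4 CPM in 8.4/bFGF (log2 fold change -0.67, SE 0.13, edgeR adjusted p = 0.102), and the tight junction gene Cldn5 at 17.99, 10.9 and 17.1 against 21.6, 32.1 and 32.3 CPM, both lower with aFGF in each library. Pecam1, which the study stained as CD31 to count vessels, was at 267, 241 and 256 CPM in 8.4/aFGF and 200.1, 279 and 349 CPM in 8.4/bFGF (means 255 ± 12.8 against 276 ± 74.7 CPM (SD, n = 3 each), log2 fold change -0.10, SE 0.20, edgeR adjusted p = 0.806). Its groups overlapped. Apold1, an early response gene of endothelium, was at 65.1, 22.5 and 12.7 against 24.8, 15.01 and 29.4 CPM (log2 fold change 0.57, SE 0.59, edgeR adjusted p = 0.602).

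For several other cell types few or 0 genes passed the unadjusted threshold. Adipocyte genes were negative in all 19 tested, with a median log2 fold change of -0.51, and 0 had an unadjusted edgeR p under 0.05 or a DESeq2 call. Plin1, the lipid droplet coat protein, was at 72.1, 27.8 and 37.7 against 156, 106 and 30.8 CPM and Thrsp at 52.98, 17.5 and 4.13 against 441, 45.9 and 15.6 CPM, and bFGF replicate 1 was the highest library in both. The adipocyte median was -0.0088 without that library, and without 8.4/bFGF replicate 3 it was -0.95, with 5 lower. Skeletal muscle genes, 33 tested and 0 at an unadjusted edgeR p under 0.05 or called by DESeq2, were as uneven, with Ryr1 at 94.6, 135 and 32.2 against 269.9, 115 and 127 CPM and Neb at 103, 168 and 41.2 against 320.3, 105 and 143 CPM. The muscle regeneration genes, 14 tested and also 0 by either test, included Musk and Chrnd at 4.10, 3.91 and 1.54 against 2.29, 1.52 and 1.30 CPM and 1.73, 4.54 and 2.03 against 2.69, 0.878 and 1.36 CPM. Of 22 T and NK cell genes, 1 was higher, Il7r at 21.03, 19.7 and 13.4 against 8.91, 8.78 and 15.2 CPM, and Gzmb was at 6.93, 17.4 and 6.03 against 7.52, 3.62 and 6.51 CPM. Among 16 mast cell and eosinophil genes 0 passed an unadjusted edgeR p of 0.05 and DESeq2 called 0, with Ccr3 at 3.47, 2.52 and 2.19 against 3.96, 3.41 and 8.78 CPM and Il5ra at 0.122, 0.139 and 0.324 against 0.343, 0.258 and 2.16 CPM, and Epx, eosinophil peroxidase, had 0 counts in all 6 libraries, which allows up to 3 counts each. Tnfsf14, the cytokine LIGHT, was at 36.02, 31.8 and 64.9 CPM in 8.4/aFGF and 22.3, 15.99 and 23.01 CPM in 8.4/bFGF (log2 fold change 1.13, SE 0.29, edgeR adjusted p = 0.127). Of 10 red blood cell genes, 0 passed an unadjusted edgeR p of 0.05 and DESeq2 called 0, with Bpgm at 33.9, 29.6 and 27.7 against 44.3, 33.4 and 25.8 CPM. In 18 Schwann cell and melanocyte genes, Gap43 was higher at 3.22, 4.68 and 3.57 against 2.43, 2.45 and 2.44 CPM and Ncam1 lower at 13.5, 17.6 and 14.6 against 24.3, 18.2 and 21.04 CPM. Liver genes were higher in 9 and lower in 1 of 26 tested, and ovary and oviduct genes lower in 6 and higher in 0 of 19. Fgg, a fibrinogen chain, was at 5.90, 8.06 and 2.46 against 0, 0.413 and 0 CPM, and Uox at 19.2, 16.2 and 17.6 against 20.96, 40.5 and 38.9 CPM. The lists of both tissues were chosen because of the 2 libraries described at the start. With 8.4/aFGF replicate 2 left out, 1 liver gene was higher, and without 8.4/bFGF replicate 3, 3 were. The number was 10 and 11 without 8.4/aFGF replicates 1 and 3, and 8 and 7 without 8.4/bFGF replicates 1 and 2. Without both libraries with genes of other tissues, 7 of 26 liver genes were higher and 1 lower, where 7.82% and 5.48% of all genes were. In that fit 3 of 18 ovary and oviduct genes were higher and 1 lower. The number of ovary and oviduct genes that were lower was 12 and 10 without 8.4/bFGF replicates 1 and 3, 1 without 8.4/aFGF replicate 1 or 3, and 0 without 8.4/aFGF replicate 2 or 8.4/bFGF replicate 2. In the lists of skeletal muscle, muscle regeneration, T and NK cells, mast cells and eosinophils, red blood cells, and Schwann cells and melanocytes, leaving out 1 library moved the counts by at most 2, and the median of each changed sign without at least 1 library.

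**Figure D4:**
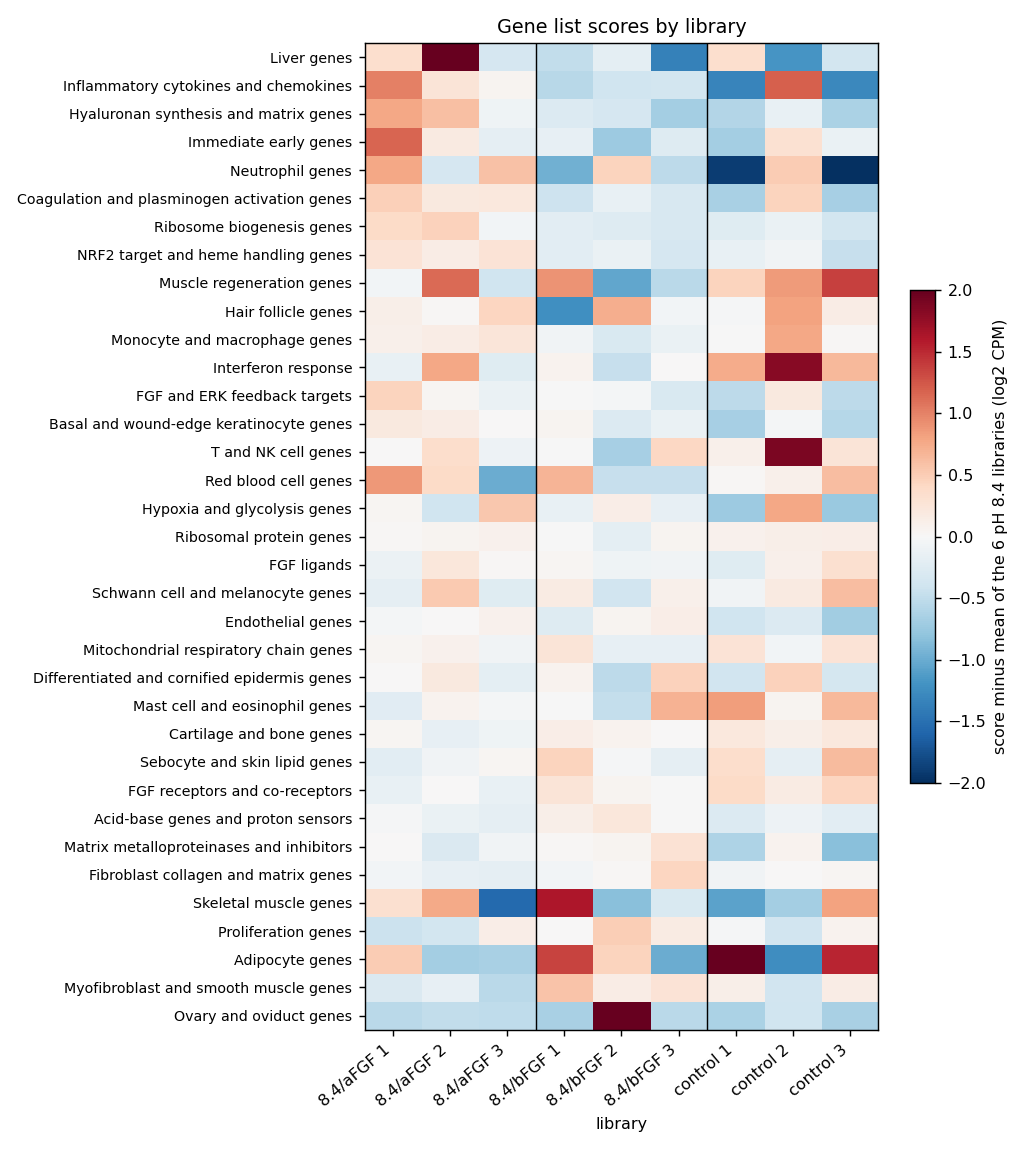
Mean log2 CPM of the tested genes of each list (rows) in each library of 8.4/aFGF, 8.4/bFGF and control (columns), drawn as the difference from the mean of the 6 pH 8.4 libraries and cut at 2 in either direction. Immediate early, cytokine and hyaluronan genes are redder in 8.4/aFGF replicate 1, liver and ovary genes in replicate 2 of 8.4/aFGF and of 8.4/bFGF, and the smooth muscle row is blue in the 3 aFGF libraries and red in the 3 bFGF libraries.

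The same contrast was then read at the other pH values, in libraries outside the 6 compared that had entered the fit of all 21. Of these, 7.4/aFGF replicate 3 had 24 genes high in it alone. Values at pH 7.4 and 6.4 came from a fit of the 18 hydrogel libraries, and those at pH 8.4 from the fit of 6. Of the 12 genes higher at pH 8.4, 11 had a positive log2 fold change at pH 7.4 and 9 at pH 6.4, and of the 12 lower genes 11 and 8 had a negative one. Over all 15041 genes, 72.1% had the same direction at pH 7.4 as at pH 8.4, and 60.2% at pH 6.4. Median log2 fold changes of the 12 higher genes were 1.11, 0.52 and 0.26 at pH 8.4, 7.4 and 6.4, and those of the 12 lower genes were -1.08, -0.54 and -0.35. As the genes were chosen at pH 8.4, a smaller value elsewhere is part of that choice. Procr had log2 fold changes of 1.32 (SE 0.35, edgeR adjusted p = 0.128) at pH 7.4 and 0.62 (SE 0.35, edgeR adjusted p = 0.647) at pH 6.4. Mmp19 was at 1.69 (SE 0.29, edgeR adjusted p = 0.0468) at pH 7.4 and 1.01 (SE 0.28, edgeR adjusted p = 0.564) at pH 6.4. Lmna was at 1.13 (SE 0.14, edgeR adjusted p = 0.0057) and 0.44 (SE 0.14, edgeR adjusted p = 0.564). Mmp19 and Lmna thus passed the same thresholds at pH 7.4, but in the fit of 18 libraries. In that fit their log2 fold changes at pH 8.4 were 2.31 and 1.07. At pH 8.4 the edgeR adjusted p of both was 0.0645 in the fit of 6 libraries and 0.00341 in that of 21. As the fits differ, these adjusted p do not rank the pH values. Procr, Mmp19 and Lmna pointed the same way at each pH.

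**Figure D5:**
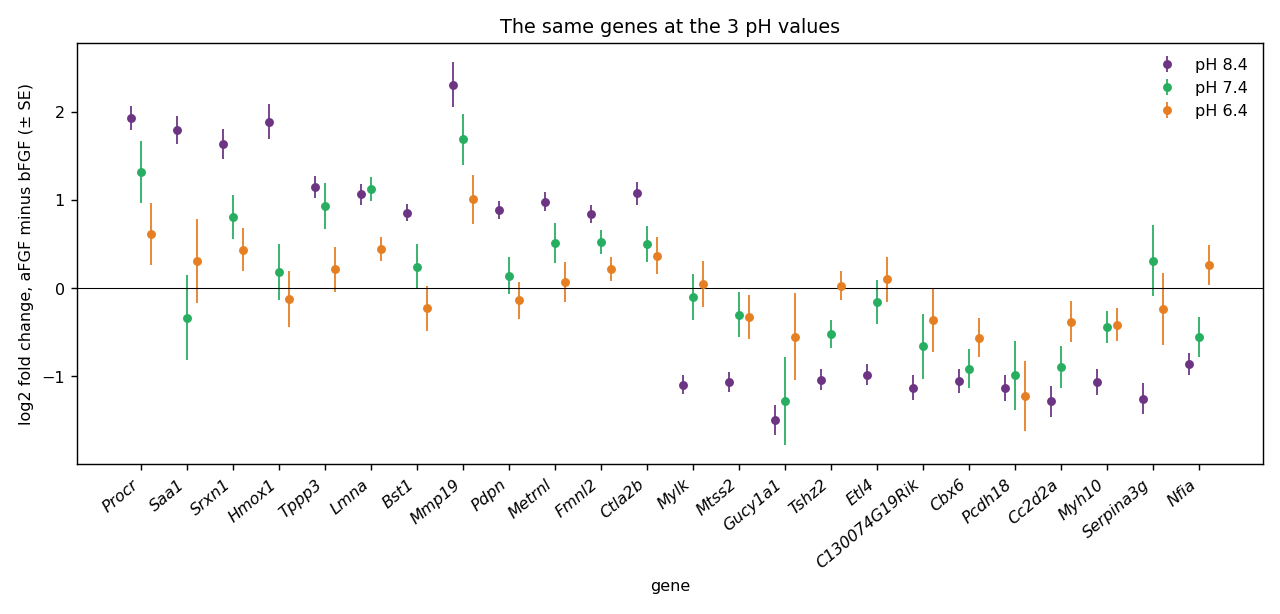
Log2 fold change of aFGF minus bFGF with its SE for the 24 genes chosen at pH 8.4 (purple), at pH 7.4 (green) and at pH 6.4 (orange). The pH 8.4 values are from the fit of 6 libraries and the others from that of the 18 hydrogel libraries. Procr, Mmp19 and Lmna stay over 0 at each pH, whereas Hmox1, at 1.89, 0.18 and -0.13, and Mylk, at -1.10, -0.10 and 0.047, lie near 0 away from pH 8.4.

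Whether the aFGF against bFGF difference at pH 8.4 itself differed from the mean of that at pH 6.4 and 7.4 was tested as an interaction over the 18 hydrogel libraries. edgeR called 0 of 15696 genes, 1048 had an unadjusted p under 0.05 (6.68%), and the smallest adjusted p was 0.74, while DESeq2 called 4. The difference at pH 8.4 exceeded that at the other pH values by 1.86 on the log2 scale for Hmox1 (edgeR adjusted p = 0.74). For Myh11 it was lower by a log2 value of -1.34 (edgeR adjusted p = 0.74), with log2 fold changes of -0.030 at pH 7.4 and 0.38 at pH 6.4. Mylk gave -1.07 (edgeR adjusted p = 0.74) and Procr 0.97 (edgeR adjusted p = 0.74). None of these 4 passed the adjusted threshold, so a dependence on pH is not shown for them.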

How the data were processed

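RNA was extracted with TRIzol and sequenced as poly(A) libraries from a stranded kit. For every library the authors deposited unnormalized counts of reads on each gene, and FPKM. In 13699 genes checked, each FPKM deposited by the authors followed from the count, the library total and 1 length for the gene. The submitters' processing notes name the build GRCm39, and the aligner and the counter are not given in the sources used here, so it is not known whether strand was used or how reads of near-identical genes were split. Gene symbols are those of the tables, and 18662 of 18806 (99.2%) were found in a RefSeq table used for names.

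The 6 libraries were fitted with the quasi-likelihood method of edgeR 4.0.16 (R 4.3.3), after TMM scaling and its standard removal of low genes. A call required a p under 0.05 after Benjamini-Hochberg adjustment and an absolute log2 fold change over 0.58. CPM used TMM factors over all 21 libraries, and log2 CPM a prior count of 2. The interaction fit used the 18 hydrogel libraries. Genes with 0 counts may be present at up to 3 counts of a library, an allowance for counting error alone. The labels call the replicates biological. The study had 3 mice a group, with wounds on both sides of the back and mice killed on day 4 and later. No label ties a library to a mouse. If libraries share a mouse, p-values measure only the spread between these samples. Replicates differed by far more than counting noise. The tests were tried on simulated counts. Alternatives were DESeq2 1.42.0, other normalizations and filters, a fit of 21 libraries, a replicate block, limma 3.58.1 on log2(FPKM + 1) or log2(FPKM + 0.1), and leaving libraries out.

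The members and the gene lists were chosen with earlier results of these data known, and 4 lists (NRF2 and heme, coagulation, hyaluronan, ribosome biogenesis) were written after values had been seen. A rule named the called genes, the 12 with the smallest p in each direction with a mean of at least 1 CPM and no overlap, the 2 with the smallest p in each list, 12 FGF genes, 12 genes of the study, the 10 highest genes of each library with genes of other tissues, and the 6 with the smallest p in each direction when a left-out library moved the calls by over 1.5 times. Genes were taken as high in 1 library alone at over 0.5 CPM and over 8 times the next library plus 0.05 CPM. Further list members in the text were chosen after their values were seen. Some genes that the rule names are not reported here.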

Additional observations from a re-analysis of the deposited data

How the results depend on the processing

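The count of calls between 8.4/aFGF and 8.4/bFGF, 1 gene in edgeR, moved with the tool and with the libraries used. It was again 1 with RLE normalization, without a filter, with at least 10 counts in every library, with robust dispersion, with limma on FPKM in 3 forms and without a fold threshold. It was 949 with DESeq2 at default settings and 924 with DESeq2 when Cook's cutoff and independent filtering were off. A fit of all 21 libraries gave 10, with 7 higher and 3 lower with aFGF. Mmp19, Lmna, S100a10, Srxn1 and Hmox1 were among the higher ones, and Procr was not called (edgeR adjusted p = 0.0934). At an adjusted p under 0.1, which was chosen after seeing the data, the count was 152. Leaving out 1 library gave 0 to 172 calls, with 172 without 8.4/aFGF replicate 3 and 0 without each of the other 5, and leaving out both libraries with genes of other tissues gave 0 (2003 genes at an unadjusted edgeR p under 0.05). The cause of these moves, up or down, was not tested. The interaction with pH gave 0 calls in edgeR, in limma and with each library left out, 4 with DESeq2 at default settings and 14 with both steps off. Depth was near equal in the 6 libraries, and 3 replicates a group allow no exact permutation p under 0.1 for a single gene.

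With the replicate number as a block, edgeR made 0 calls (smallest adjusted p 0.222). The deviations of same-numbered libraries from their group means correlated at 0.087, -0.30 and 0.11, so the numbers were not taken to pair the libraries, and not every library correlated best with its own number. The interaction also gave 0 calls under the replicate block.

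Of 197 genes named and tested, 15 turned their sign under at least 1 alternative. With each library left out in turn, the log2 fold changes ranged from -0.67 to 4.98 for Ahsg, -5.08 to 0.47 for Amh, -0.39 to 0.96 for Apold1, -0.34 to 0.039 for Bpgm, -0.80 to 0.038 for Fgf1, -0.060 to 0.17 for Fgfr1, -5.68 to 0.87 for Ovgp1, -1.03 to 0.070 for Padi3, -0.30 to 0.11 for Pecam1, -0.19 to 0.43 for Rnf213, -0.16 to 0.34 for Spry1 and -0.37 to 0.11 for Spry4. Leaving out both libraries with genes of other tissues gave -0.23 for Ahsg, 0.89 for Amh, -0.087 for Chrnd, -0.020 for Fgfr1, 0.052 for Fgfr2, -0.091 for Gzmb, 1.02 for Ovgp1, -0.23 for Rnf213 and 0.026 for Spry4. With limma on FPKM they were -0.074 and -0.075 for Fgfr1 and -0.018 and -0.020 for Spry1.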

Other observations

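Genes that build ribosomes were read from a list of 43 written after values had been seen, so their counts are no independent support. All 43 had a positive log2 fold change, with a median of 0.59. At an unadjusted p under 0.05, 33 were higher with aFGF and 0 lower, where 11.7% and 9.42% of all genes were. The list scores were 5.71, 5.78 and 5.26 with aFGF and 5.11, 5.07 and 5.01 with bFGF, with aFGF replicate 3 the nearest to bFGF. Mrto4, a ribosome assembly factor, was at 33.95, 36.3 and 29.9 CPM in 8.4/aFGF and 19.7, 21.4 and 21.3 CPM in 8.4/bFGF (log2 fold change 0.70, SE 0.12, edgeR adjusted p = 0.0882), and Gnl3, nucleostemin, at 81.7, 82.2 and 59.3 against 46.2, 42.2 and 45.8 CPM. Fbl, the fibrillarin that methylates ribosomal RNA, was at 88.8, 96.05 and 83.03 against 65.6, 65.8 and 65.7 CPM and Ncl, nucleolin, at 493, 489 and 424 against 348, 333 and 354 CPM. The groups did not overlap in these 4 genes. Without both libraries with genes of other tissues, 11 of 43 were higher and 0 lower, with a median of 0.47. With 1 library left out, 21 to 37 were higher and 0 lower, the 21 without 8.4/aFGF replicate 2. Of 35 ribosomal protein genes, 1 was higher, Rpl27 at 281, 274 and 285 against 251, 223 and 246 CPM, which was lost with any 1 library left out, and the median was 0.13, with Rplp2 at 595, 611 and 622 against 540.2, 449 and 552 CPM. In 35 mitochondrial respiratory chain genes 0 passed an unadjusted edgeR p of 0.05, 0 were called by DESeq2, and 0 passed with 1 library left out except without 8.4/bFGF replicate 1, where 8 were higher. Cox6b1 and Uqcrq were at 147, 147 and 148 against 143, 117 and 122 CPM and 148, 147 and 143 against 150.2, 104 and 104 CPM.

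Of 41 acid-base genes tested in the alkaline gel, 26 had a negative log2 fold change and 15 a positive one. Their median log2 fold change was -0.12, where that of all genes tested was -0.012. It was -0.26 to -0.086 with each library left out in turn, and -0.073 without both libraries with genes of other tissues. The list scores were 2.80 to 2.97 with aFGF and 2.99 to 3.21 with bFGF, without overlap. Few members passed an unadjusted edgeR p of 0.05, with 3 higher and 4 lower, where 11.7% and 9.42% of all genes were. Without 8.4/aFGF replicate 3, 5 were higher and 7 lower. Slc4a11 and Slc4a3, transporters of the bicarbonate transporter family, were at 5.14, 6.73 and 4.05 against 2.11, 2.27 and 2.41 CPM and 8.72, 8.34 and 8.43 against 11.3, 16.8 and 15.04 CPM. The proton channel gene Hvcn1 was lower with aFGF at 20.6, 17.8 and 28.4 against 43.98, 28.7 and 46.6 CPM, and Gpr132 was higher at 36.4, 28.1 and 21.4 against 17.8, 17.4 and 16.6 CPM, each without overlap. Hypoxia and glycolysis genes were higher in 3 of 30 tested and lower in 0, a share under the 11.7% of all genes, with a median log2 fold change of 0.14. The direction turned without 8.4/aFGF replicate 3, where 4 were higher and 7 lower with a median of -0.16. Without 8.4/aFGF replicate 2, 8.4/bFGF replicate 2 or both, 7, 5 and 8 were higher and 0 lower. Pfkfb4, a regulator of glycolysis, was at 71.6, 60.4 and 81.00 against 46.5, 51.8 and 40.3 CPM and Ndrg1 at 266, 212 and 281 against 169, 162 and 207 CPM.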
